A study of Mus musculus with 17 samples.

Results

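The immediate early transcription factors Fos, Fosb, Fosl2, Jun, Junb, Jund, Egr1, Ier2, Atf3 and Myc were followed across cultured mouse astrocytes treated with a Hedgehog pathway agonist or with fibroblast growth factors. They were taken from the deposited count table by gene symbol, and 10 of 10 were found among the 56691 gene rows. Immediate early genes are switched on within minutes of a stimulus without the need for new protein, and their transcripts are short-lived. FOS and JUN family proteins pair to form AP-1, a factor that binds enhancers and promoters, while EGR1 is a zinc-finger factor and MYC a factor that drives growth and ribosome production. In astrocytes these genes are known to respond to growth factors, injury and the handling of cells.

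The astrocytes came from whole brains of early postnatal C57BL/6 mice, without meninges, olfactory bulbs and cerebellum. They were purified on antibody-coated plates by depletion of CD45+ and O4+ cells and selection of HepaCAM+ cells. All groups were grown in serum-free medium that held heparin-binding EGF-like growth factor. In the first experiment, cultures were given SAG (an agonist of Smoothened, the Hedgehog signal transducer) at 500 ng/ml in DMSO or DMSO alone from day 3 in vitro for 3 days, with 3 libraries each. In the second, cultures received FGF2 (4 libraries) or FGF10 (3 libraries), both at 50 ng/ml in PBS, or PBS alone (4 libraries), from day 2 in vitro for 7 days. The 17 libraries were 3ʹ-end RNA-seq libraries, so the readouts were taken days after the start of treatment, and the cells were of the whole brain rather than of the septum. The labels do not say which cultures came from the same animals, so p-values measured only the spread between these libraries.

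Levels are given as CPM (read counts scaled to the size of each library) with TMM scaling over all 17 libraries. A 3ʹ-end library yields its reads from the end of each transcript, so CPM does not rise with transcript length and levels of different genes are on one scale. Total counts per library ran from 17481727 to 68342287. All 10 astrocyte markers on the list were detected in each group, with a summed level of 3429 to 5456 CPM per library. The 10 microglia or macrophage markers summed to at most 9.53 CPM, with Csf1r and Aif1 at 0 in each group. Markers of the oligodendrocyte lineage summed to 2139 to 4491 CPM, those of neurons to 35.1 to 215 CPM, those of endothelial or mural cells to 41.0 to 355 CPM and those of fibroblasts to 56.3 to 201 CPM. Slc17a6 and Slc17a7 of the neuron list, Cldn5, Cdh5 and Kcnj8 of the endothelial or mural list and Lum of the fibroblast list were at 0 in each group. Pdgfra stood on both the oligodendrocyte and the fibroblast list, so a summed level alone does not show that a cell type was present. The fibroblast list, Pdgfra included, summed to at most 201 CPM, so Pdgfra gave at most that much of the oligodendrocyte lineage sum. The immediate early transcripts can be made by any of these cell types, and in bulk cultures fewer cells of a type and less RNA per cell cannot be told apart.

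The promoters of Fos and Jun, the founding genes of the AP-1 families, are shown because both start sites coincided in RefSeq and in the GENCODE annotation (build GRCm38). Each window runs from 250 bases before to 50 bases after the RefSeq start, and capitals mark the motifs found. Fos lies at chr12:85473890-85477273 on the + strand, with its window at chr12:85473640-85473939. Jun lies at chr4:95049034-95052222 on the - strand, with its window at chr4:95052173-95052472.
Fos: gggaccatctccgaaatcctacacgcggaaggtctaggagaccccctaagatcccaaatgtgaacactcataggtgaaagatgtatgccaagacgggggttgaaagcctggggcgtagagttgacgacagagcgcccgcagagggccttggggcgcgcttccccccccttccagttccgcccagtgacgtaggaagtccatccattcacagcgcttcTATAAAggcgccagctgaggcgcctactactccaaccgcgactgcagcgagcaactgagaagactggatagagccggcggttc
Jun: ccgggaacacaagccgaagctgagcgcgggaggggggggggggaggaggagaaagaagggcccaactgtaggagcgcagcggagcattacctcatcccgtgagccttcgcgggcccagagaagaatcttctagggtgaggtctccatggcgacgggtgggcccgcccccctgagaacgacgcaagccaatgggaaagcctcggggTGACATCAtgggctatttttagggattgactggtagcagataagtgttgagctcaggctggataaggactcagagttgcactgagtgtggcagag

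The Fos window held a TATA box (TATAAA) at bases -33 to -28, a motif present on either strand in 13.6% of 32851 promoter windows of this length. The Jun window held TGACATCA at bases -45 to -38, a variant AP-1 site for which the Jun promoter is known and which was present in 3.62% of windows. The CArG box bound by serum response factor, the cAMP response element TGACGTCA and the AP-1 site TGACTCA were searched on both strands in the windows of 7 members (Fos, Fosb, Fosl2, Jun, Junb, Jund and Atf3), and no match was found. The Junb window also held TATAAA, at bases 1 to 6 from the RefSeq start, and the GENCODE start of Junb lies 30 bases downstream of that start. Across all promoter windows the 3 motifs without a match were present in 1.63%, 1.79% and 5.20%. The EGR motif GCGNGGGCG stood in the windows of Fosb and Fosl2, against 5.55% of all windows. A match is a description of the letters only. Only exact matches within these windows were sought, so the lack of a match does not cover variant letters or sites farther away. The GENCODE start lay at 1210 bases from the RefSeq start for Jund, -671 for Fosl2 and -34706 for Atf3, where a minus is upstream.

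Jun, which encodes the main partner of FOS in AP-1, was the most abundant AP-1 gene. Its level was 165, 123 and 207 CPM in the DMSO libraries, 98.5, 136 and 91.2 CPM with SAG, 189, 176, 169 and 145 CPM with PBS, 166, 165, 248 and 188 CPM with FGF2, and 166, 217 and 116 CPM with FGF10. Of the SAG libraries, 2 of 3 libraries were the lowest of all 17, and the SAG libraries overlapped with those of their vehicle DMSO. PBS, FGF2 and FGF10 belonged to the second experiment, which differed in vehicle and days in culture. Differences in level between SAG and these groups cannot be told apart from those of the experiments. Jund, which encodes a JUN protein present in resting cells, was at 119, 136 and 61.4 CPM with DMSO, 91.3, 71.7 and 76.9 CPM with SAG, 89.7, 146, 124 and 94.7 CPM with PBS, 99.4, 140, 84.9 and 90.2 CPM with FGF2, and 130, 148 and 95.8 CPM with FGF10. The lowest Jund library was a DMSO library and the highest an FGF10 library. Junb, whose protein can oppose JUN at some promoters, ran from 9.10 to 77.2 CPM with a median of 24.0 CPM, and both its highest (FGF2 replicate 3) and lowest (DMSO replicate 2) libraries lay outside the SAG group. Junb at chr8:84974484-84978718 (- strand) overlaps Prdx2 over 351 bases that include the 3ʹ end of Junb. Prdx2 had 4605 to 26930 counts per library, and whether the counting used strand is not given in the sources used here, so reads of the pair may not have been kept apart. Jun and Jund also overlap antisense genes, Junos and Gm11175, but their 3ʹ ends lie outside these.

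Within the JUN family, Jun gave 44.5% to 65.3% of the summed CPM (median 52.2%), Jund 19.4% to 50.6% and Junb 3.40% to 18.8%. Jun stood above Jund in 16 of 17 libraries, and Junb was the lowest of the family in 17 of 17. The Junb values carry the limit given above, that its reads and those of Prdx2 may not have been kept apart. The JUN family summed to 186 to 410 CPM per library, while Fos, Fosb and Fosl2 together summed to 0.193 to 67.7 CPM. The lowest ratio of JUN to FOS family CPM in a library was 3.28 and the median ratio was 9.74. JUN family transcripts therefore outnumbered those of Fos, Fosb and Fosl2 together in 17 of 17 libraries. Fosl1 was not among the members and is not in this sum.

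**Figure D1:**
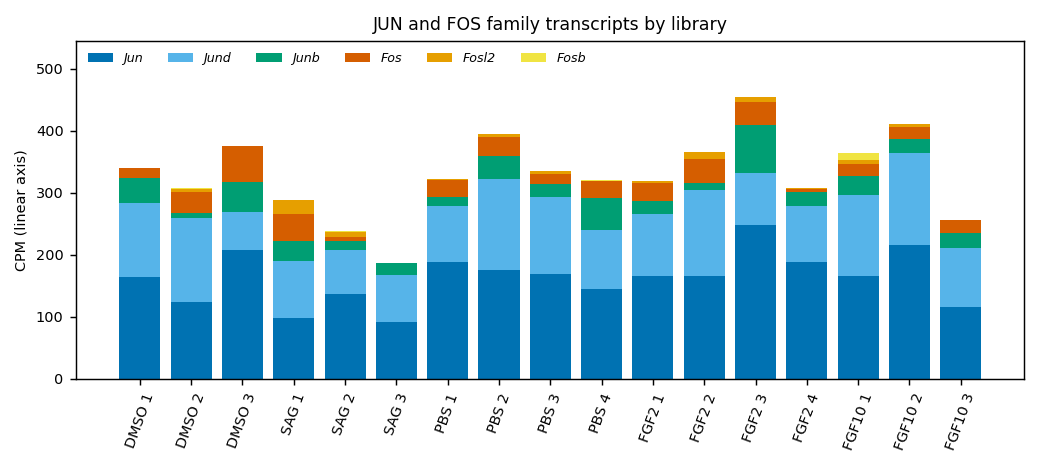
Stacked bars give the summed CPM (linear axis) of the JUN family genes Jun, Jund and Junb and the FOS family genes Fos, Fosl2 and Fosb in each of the 17 libraries. Jun and Jund make up most of each bar, and the FOS family part runs from 0.193 CPM in SAG replicate 3 to 67.7 CPM in SAG replicate 1.

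Fos, the classic activity marker of neurons and glia, was at 16.0, 33.5 and 58.6 CPM with DMSO, 43.6, 6.59 and 0 CPM with SAG, 27.9, 31.5, 16.5 and 27.5 CPM with PBS, 29.3, 37.6, 37.2 and 4.31 CPM with FGF2, and 18.6, 20.3 and 20.8 CPM with FGF10. The FGF10 libraries lay close together, while the SAG libraries ran from the lowest to the second highest of the series. The 0 in SAG replicate 3, where a count of 3 equals 0.0965 CPM, stood against 178 to 2221 counts in the other 16 libraries. Fosl2, which encodes FRA2, had no read in 5 libraries, and the other libraries had 42 to 843 counts with the highest level, 24.1 CPM, in SAG replicate 1. Fosb had no read in 10 libraries and a level of 10.3 CPM in FGF10 replicate 1, its highest. Atf3, a stress-induced member of the ATF family, had no read in 13 libraries, among them all DMSO and FGF2 libraries, while PBS replicate 1, SAG replicate 3 and FGF10 replicates 2 and 3 had 106 to 296 counts, or 2.55 to 6.04 CPM. Libraries thus had either no Atf3 reads or more than 100.

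Ier2, a nuclear immediate early factor, was at 31.7, 16.4 and 7.83 CPM with DMSO, 0.114, 22.5 and 0 CPM with SAG, 15.3, 8.74, 35.0 and 59.9 CPM with PBS, 15.8, 24.1, 39.1 and 49.2 CPM with FGF2, and 9.44, 19.9 and 9.87 CPM with FGF10. One FGF2 library lay below the highest FGF10 library, and the other 3 FGF2 libraries lay above it. Myc was at 40.1, 16.5 and 0.237 CPM with DMSO, 77.4, 2.29 and 14.2 CPM with SAG, 34.6, 11.8, 2.01 and 15.5 CPM with PBS, 21.5, 2.06, 20.0 and 4.89 CPM with FGF2, and 1.85, 7.33 and 0 CPM with FGF10. The FGF10 libraries were among the low ones, but PBS and FGF2 each had at least 1 library within their range.

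Egr1 was at 162, 128 and 96.9 CPM with DMSO, 138, 140 and 121 CPM with SAG, 74.0, 45.6, 214 and 554 CPM with PBS, 48.5, 24.8, 855 and 273 CPM with FGF2, and 18.9, 39.8 and 305 CPM with FGF10. Its libraries of the first experiment lay close together, and those of the second covered its whole range. In the order of group means, FGF2 came first (300 ± 386 CPM, SD, n = 4), then PBS (222 ± 233, n = 4), SAG (133 ± 10.4, n = 3), DMSO (129 ± 32.7, n = 3) and FGF10 (121 ± 159, n = 3). For each of the 10 genes, neighbouring groups in this order overlapped in their libraries. Neighbours in such an order are the groups closest in mean, and the share over all genes was not computed. The overlap is therefore a description only.

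**Figure D2:**
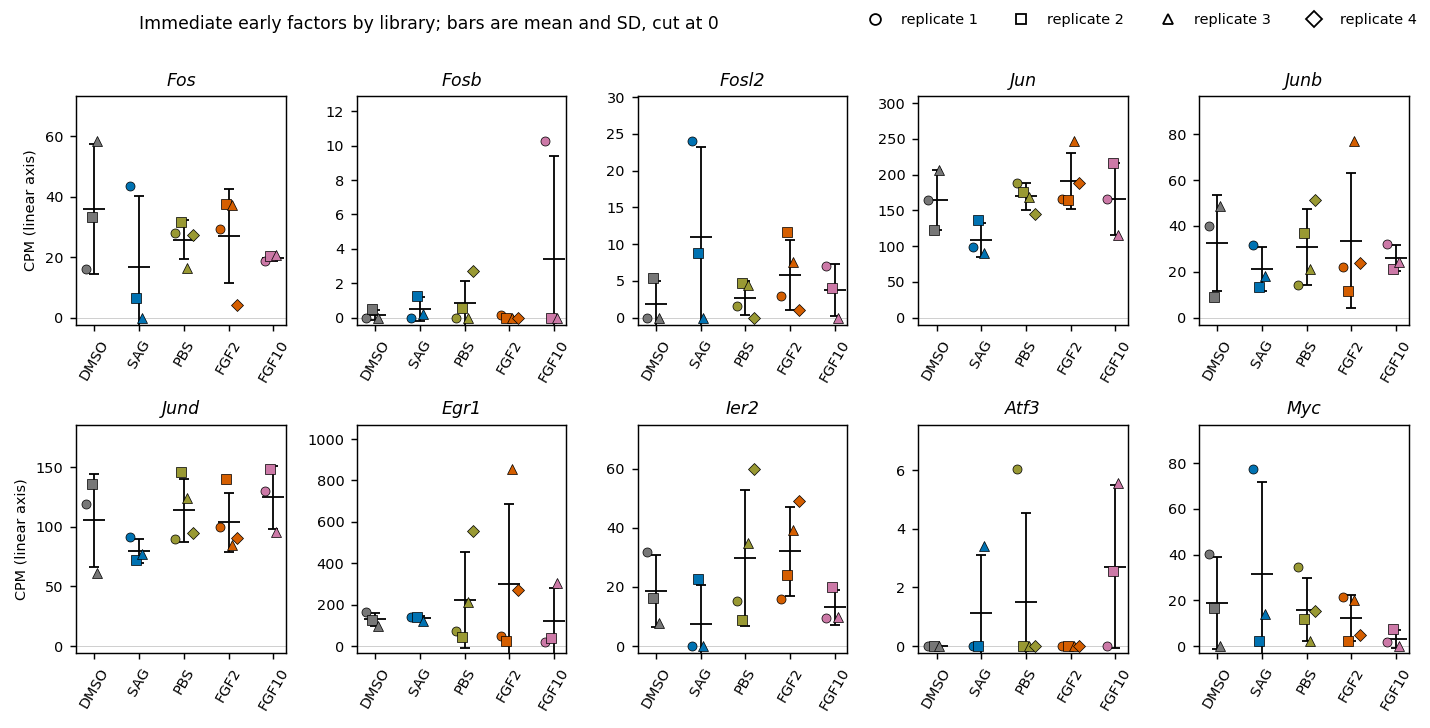
Each panel gives the CPM (linear axis) of 1 gene in each of the 17 libraries, by group, with marker shapes for replicate numbers and bars for the group mean and SD, cut at 0. Each treatment overlaps with its own vehicle in each panel, and Egr1 replicates 3 and 4 of PBS, FGF2 and FGF10 stand at 214 to 855 CPM.

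The first comparison asked whether the Hedgehog agonist changed these genes. Between SAG and DMSO, 0 of the 8 members tested passed an adjusted p under 0.05 in edgeR's quasi-likelihood test, where 0.0638% of 12538 genes did. None had an unadjusted p under 0.05 either, against 5.69% of all genes, and none was without overlap between the groups, against 14.1% of all genes. DESeq2 called 0 members and gave 1, Jun, an unadjusted p under 0.05. Fosb and Atf3 had too few reads to be tested. Fold changes were fitted with scaling over the libraries of each comparison alone.

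Jun had the lowest p of the 8, with a log2(fold change) of -0.58 (SE 0.27, 95% interval -1.18 to 0.02) and an adjusted p of 0.910 (edgeR). The exact two-sided permutation test of CPM gave p = 0.2 for Jun, where 3 libraries against 3 allow no value below 0.1. Egr1 was measured most precisely, with a log2(fold change) of 0.072 (SE 0.25, 95% interval -0.49 to 0.63). Jund had a log2(fold change) of -0.37 (95% interval -1.10 to 0.35) and Junb of -0.60 (95% interval -2.25 to 1.04). For Fos the value was -1.09 (95% interval -4.27 to 2.09), so neither a large fall nor a rise could be told from no change. Ier2 was at -1.28 (SE 1.95), Myc at 0.75 (SE 1.39) and Fosl2 at 2.62 (SE 3.01), each with an interval that spanned 0. The sign for Myc rested on SAG replicate 1, without which it was -1.18, and that of Egr1 on DMSO replicate 3, without which it was -0.10. The summed markers of the oligodendrocyte lineage were at 4012 to 4129 CPM in the SAG libraries and 2252 to 2767 CPM in the DMSO libraries, and their part in these values was not tested.

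The second comparison asked for the effect of FGF2, which signals through receptor tyrosine kinases to the ERK pathway upstream of Fos and Egr1. Between FGF2 and PBS, 0 of 8 members tested were called, as were 0% of 12744 genes. None had an unadjusted p under 0.05, against 1.75% of all genes, and none was without overlap, against 2.44%. DESeq2 called 0 members. Jun had a log2(fold change) of 0.17 (SE 0.21, 95% interval -0.28 to 0.63) and Jund of -0.14 (SE 0.26, 95% interval -0.69 to 0.42). Fos was at 0.059 (95% interval -1.25 to 1.37), Junb at 0.11 (95% interval -1.18 to 1.40) and Ier2 at 0.10 (95% interval -1.19 to 1.40). Egr1 was at 0.42 (SE 0.92, 95% interval -1.56 to 2.39), and without FGF2 replicate 3 it was at -0.94. Myc was at -0.41 (SE 0.99) and Fosl2 at 1.10 (SE 1.93). The lowest exact permutation p over the 10 genes was 0.343.

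For FGF10, which acts mainly on another splice form of FGF receptors, 10 members were tested against PBS and 0 were called, as were 0% of 13309 genes. At an unadjusted p under 0.05 there were again 0 members, against 2.29% of all genes, and 0 members were without overlap, against 4.80%. DESeq2 called 0 members and left 1 without an adjusted p. Ier2 had a log2(fold change) of -1.19 (SE 0.75, 95% interval -2.81 to 0.43) and Myc of -2.37 (SE 1.70, 95% interval -6.05 to 1.30). Egr1 was at -0.88 (SE 0.89), and without PBS replicate 4 it was at 0.12. Jun at -0.028 (95% interval -0.57 to 0.51) and Jund at 0.13 (95% interval -0.45 to 0.72) had the narrowest intervals. Fos was at -0.37 (95% interval -1.58 to 0.84) and Junb at -0.26 (95% interval -1.44 to 0.93). Fosl2 at 0.46, Fosb at 2.04 and Atf3 at 0.86 each had an SE above 2.5. The value of Fosb rested on FGF10 replicate 1, the only FGF10 library with Fosb reads.

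The 2 factors shared their PBS libraries, so they were also compared directly. Between FGF2 and FGF10, 0 of 8 members tested were called, as were 0% of 13493 genes, and 0 had an unadjusted p under 0.05, against 2.40% of all genes. None was without overlap, against 4.94% of all genes. DESeq2 called 0 members and gave 1, Ier2, an unadjusted p under 0.05. Ier2 was 1.30 higher with FGF2 on the log2 scale (SE 0.60, 95% interval -0.01 to 2.60). The adjusted p was 1.00 in edgeR's test across all genes. The exact permutation p for Ier2 was 0.114, the lowest of the 10 genes. Within replicates 1 and 2 the Ier2 difference was 0.44 (SE 0.82), and within replicates 3 and 4, where FGF10 had 1 library, it was 2.17 (SE 0.87). Egr1 had a log2 difference of 1.31 (SE 1.08), Myc of 1.98 (SE 1.77) and Jun of 0.21 (95% interval -0.39 to 0.80). Fos was at 0.44 (SE 0.67), Junb at 0.38 (SE 0.61), Jund at -0.26 (SE 0.28) and Fosl2 at 0.65 (SE 2.06). Without FGF2 replicate 3 the Egr1 difference was -0.07.

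Between the vehicles PBS and DMSO, which also differed in experiment and days in culture and so cannot be told apart from these, 0 of 9 members tested were called, as were 0% of 13271 genes. At an unadjusted p under 0.05 there were 0 members against 4.37% of all genes, DESeq2 called 0 members, and 0 members were without overlap against 6.41%. Egr1 had a log2 difference of 0.81 (SE 0.62) and, without PBS replicate 4, of -0.20. Jun differed by 0.059 (95% interval -0.44 to 0.56) and Jund by 0.13 (95% interval -0.53 to 0.79). Fos was at -0.46 (SE 0.55), Junb at -0.055 (SE 0.63), Ier2 at 0.70 (SE 0.76) and Myc at -0.23 (SE 1.21). Fosl2 was at 0.59 (SE 3.03) and Fosb at 2.30 (SE 3.43). The median log2(fold change) of the tested members was -0.48 for SAG, 0.11 for FGF2, -0.14 for FGF10, 0.55 for FGF2 against FGF10 and 0.13 for the vehicles, beside medians of -0.02, 0.0011, -0.0016, 0.0085 and 0.018 over all genes tested. These medians are descriptions over genes with few reads in some groups.

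**Figure D3:**
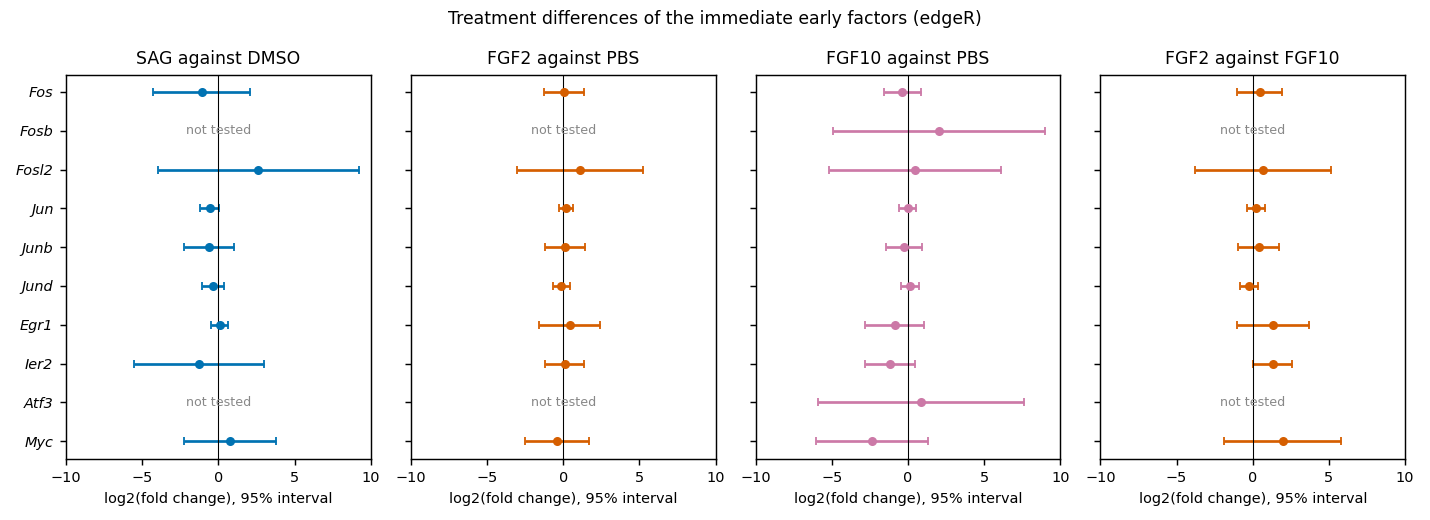
Points give the log2(fold change) of each gene in 4 comparisons from edgeR, and bars the 95% interval. All intervals include 0, those of Jun, Jund and, for SAG, Egr1 are the narrowest, and Fosb and Atf3 were tested only for FGF10 against PBS.

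How far the libraries of a group differed depended on the gene. The SD of log2 CPM within groups was 0.31 for Jun and 0.37 for Jund, against a median of 0.46 over the 2680 genes at a mean of 50 to 200 CPM. Egr1, in the same range of mean level (191 CPM), had an SD of 1.66. Among the 5745 genes at 10 to 50 CPM the median SD was 0.99 with an upper quartile of 1.85. Junb was close to that median at 0.93, while Ier2 at 2.10, Fos at 2.24 and Myc at 2.68 lay above the upper quartile. For the sparse genes Atf3 and Fosl2 the SD was 2.71 and 3.46, beside a median of 3.04 over the 5220 genes at 1 to 10 CPM. Fosb, with a mean of 0.925 CPM below that range, had an SD of 2.69. Fos, Ier2 and Myc each had 1 library without reads, and among all genes at 10 to 50 CPM the share at 0 in a given library was 0.452% to 6.28%. A library without reads lies far from the others on the log2 scale and so weighs heavily on these SDs. The SDs without such libraries were not computed.

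**Figure D4:**
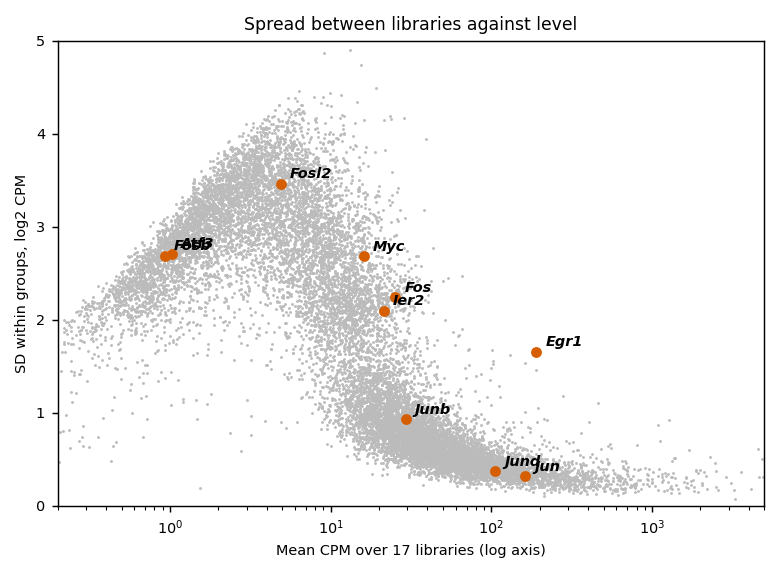
Each grey point is 1 of the genes, with its mean CPM over the 17 libraries (log axis) and the SD of its log2 CPM within groups, and orange points are the 10 immediate early genes. Egr1 (SD 1.66) lies above the median for genes at 50 to 200 CPM (0.46), while Jun (0.31) and Jund (0.37) lie below it.

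Egr1 split the second experiment by replicate number. Replicates 1 and 2 of PBS, FGF2 and FGF10 were at 18.9 to 74.0 CPM (mean 41.9, 6 libraries), and replicates 3 and 4 at 214 to 855 CPM (mean 440, 5 libraries), a ratio of means of 10.5. The lowest library of the second set lay above the highest of the first in both FGF treatments and in PBS. The labels do not say what the numbers mark, and the sets were seen in earlier results of these data, so this difference was not tested. Of 15458 genes, 4.54% were without overlap between the sets, with 2.38% higher and 2.16% lower in replicates 3 and 4. Egr1 was the only one of the 10 members without overlap. Ier2 had means of 15.5 and 38.6 CPM and Junb of 23.0 and 39.6 CPM, with overlap, while Fos, Jun, Jund and Myc had lower means in replicates 3 and 4.

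Within a set the Egr1 differences between treatments were smaller than between the sets. FGF2 against PBS gave a log2(fold change) of -0.70 (SE 0.51) within replicates 1 and 2, of 0.53 (SE 0.56) within replicates 3 and 4, and of -0.08 (SE 0.40) with the set as a term. FGF10 against PBS gave -1.03 (SE 0.55), -0.35 (SE 0.38) and -0.74 (SE 0.34), the second with 1 FGF10 library. With the set as a term, the unadjusted p for FGF10 was 0.0502 and the adjusted p 1.00 (edgeR). FGF2 against FGF10 gave 0.32 (SE 0.60) within replicates 1 and 2 and 0.54 (SE 0.40) with the set as a term. Within replicates 3 and 4, with 1 FGF10 library, the FGF2 against FGF10 value was 0.88.

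The genes whose libraries moved most like Egr1 were sought among 9070 genes with a mean of at least 10 CPM, by the Spearman correlation of their deviations from group means over 17 libraries. They were Rps25, a ribosomal protein gene (rho 0.97), Igfbp2, which encodes a secreted binder of insulin-like growth factors (0.97), and Cfl1, which encodes cofilin, a regulator of actin (0.96). Rps25 was at 235 to 298 CPM in replicates 1 and 2 and 386 to 493 CPM in replicates 3 and 4 of the second experiment. Igfbp2 was at 63.7 to 87.5 and 236 to 501 CPM, and Cfl1 at 329 to 466 and 612 to 875 CPM. These genes split by set as Egr1 did, and the correlation over 17 libraries includes that split. Over the 6 libraries of replicates 1 and 2 alone, rho with Egr1 was 0.086 for Rps25, -0.20 for Igfbp2 and 0.20 for Cfl1, and over the 6 DMSO and SAG libraries 0.54, 0.49 and 0.66.

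**Figure D5:**
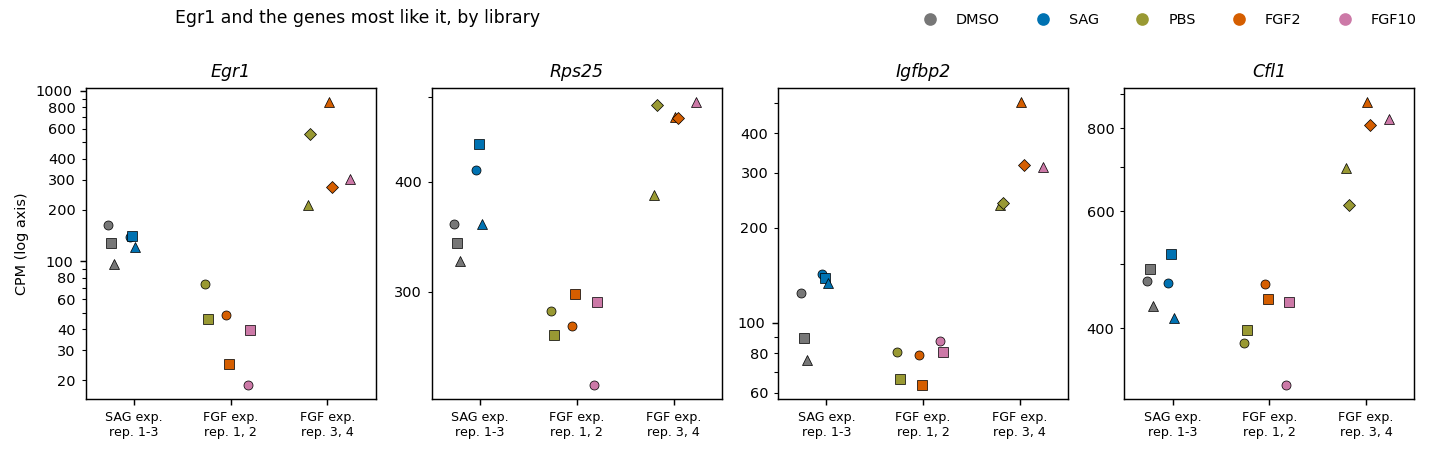
Each point is 1 library, with CPM on a log axis whose range differs between panels, for Egr1 and the 3 genes most like it, split into the SAG experiment and the replicate sets of the FGF experiment, with colours for groups and shapes for replicate numbers as in the plot of levels. In each panel, replicates 3 and 4 of the FGF experiment lie above replicates 1 and 2, at 214 to 855 against 18.9 to 74.0 CPM for Egr1.

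The other members had weaker neighbours. By the same measure, the closest genes were Pex14, Agbl3 and Fstl1 for Fos (rho 0.82 to 0.84), Ift80, Pcnp and Ndufb9 for Jun (0.80 to 0.84), Tagln2, Ssbp1 and Zfp746 for Junb (0.81 to 0.87), and Rab10os, Tcf7l2 and Crb2 for Jund (0.83 to 0.88). For Ier2 they were BC005537, Drg1 and Tmem145 (0.83 to 0.84) and for Myc Bcs1l, Nasp and Toe1 (0.84 to 0.87). No other member was among them. Between members the correlations were low, from -0.47 for Jund with Egr1 to 0.50 for Egr1 with Ier2, and Fos with Jun gave 0.25. All of these describe the 17 libraries and carry no test, since libraries differ in depth and those of the second experiment fall into replicate sets.

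Genes around the members were taken from 8 lists, and in the 3 treatment comparisons 1 gene was called. It was Ccnd1, which encodes cyclin D1 and is an AP-1 target as well as a Hedgehog-responsive gene, at 39.6, 68.4 and 34.4 CPM with DMSO and 314, 213 and 178 CPM with SAG. The SAG libraries all lay above the DMSO libraries, with a log2(fold change) of 2.33 (SE 0.33) and an adjusted p of 0.0366 (edgeR). Of the 12538 genes tested, 14.1% were without overlap between these groups in either direction, and 0.0638% were called. The call for Ccnd1 held in 6 of 12 other settings. It was lost without DMSO replicate 1 or 3 and without any 1 of the SAG replicates. It was also lost with all 5 groups in the fit (adjusted p = 0.588, edgeR). Over the libraries left out, the log2(fold change) was 2.07 to 2.69. Of the 10 AP-1 target genes, 4 were tested for SAG and for FGF2 and 5 for FGF10. In the FGF experiment Ccnd1 was at 24.0 to 86.6 CPM in replicates 1 and 2 and 179 to 1026 CPM in replicates 3 and 4, and FGF2 against PBS gave 1.32 (SE 0.88).

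Of the other immediate early transcription factors on a list of 17, 11 were tested in each treatment comparison and 0 called, with log2(fold change) values from -3.23 for Egr2 with FGF10 (SE 3.20) to 1.29 for Nfil3 with FGF2 (SE 2.12). Of 21 immediate early effectors and feedback genes, 19 were tested and 0 called, from -2.53 for Cebpb with SAG (SE 2.65) to 2.62 for Errfi1, a feedback inhibitor of the EGF receptor, with FGF2 (SE 1.73). Of 22 upstream kinases and factors, at least 21 were tested and 0 called, from -2.75 for Atf1 with FGF10 (SE 2.32) to 4.84 for Rps6ka2, an ERK-activated kinase, with FGF2 (SE 2.28). Of 11 partners, antagonists and paralogs of MYC, at least 10 were tested and 0 called, from -1.06 for Mycn with SAG (SE 1.01) to 0.79 for Mlx with FGF2 (SE 0.47). All 10 MYC target genes were tested and 0 called, from -1.36 for Fbl with FGF10 (SE 1.27) to 1.64 for Ldha, which encodes lactate dehydrogenase A, with SAG (SE 0.37, adjusted p = 0.301 in edgeR). Of 9 integrated stress response genes, 7 were tested and 0 called, from -0.83 for Ppp1r15a (SE 0.49) to 1.47 for Asns (SE 0.96), both with SAG. Of 8 heat shock genes, at least 5 were tested and 0 called, from -2.57 for Hspa1a with FGF10 (SE 2.85) to 0.66 for Dnajb1 with SAG (SE 0.54). In the comparisons of FGF2 with FGF10 and of the vehicles, 0 genes of these lists were called.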

How the data were processed

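The authors isolated RNA from 17 astrocyte cultures, prepared 3ʹ-end libraries with removal of BC1 transcripts and a number of PCR cycles chosen per library, aligned reads with STAR and counted them per gene (build GRCm38 per the labels). The deposited values are raw counts without normalization. Annotation, strand setting and use of molecular identifiers are not given in the sources used here, so PCR copies of a read may each have been counted. Of 56805 rows, 114 belong to spike-ins and were not used in library sizes or fits. Groups and replicate numbers came from the labels. The methods give fewer FGF2 replicates than the labels, and all 4 labelled libraries were used.

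Counts were analysed in R 4.3.3 with edgeR 4.0.16 (filterByExpr at 10 counts per library and 15 in total, TMM, quasi-likelihood test, only the libraries of the groups compared) and limma 3.58.1. Benjamini-Hochberg adjustment ran over all genes tested, and a call was an adjusted p under 0.05. Single members were also tested by exact two-sided permutation of CPM. Alternatives were other scaling and filters, all 5 groups in the fit, a replicate block, DESeq2 1.42.0, the replicate sets, libraries left out, and an adjusted p under 0.01 with an absolute log2(fold change) above 1. Scripts were tested on simulated data. In each comparison, a value was given for every member tested. Of each other list, the genes called were named. Where none was called, those with the highest and lowest log2(fold change) over the treatment comparisons were named. The 3 most alike genes were named for members at 10 CPM or more. Members and lists were chosen with earlier results of these data known. No library of a group repeated another, since chi-square statistics between their counts, per degree of freedom, were 152 or more. Precision was set by the spread between libraries, and the count of 3 taken as the limit of a 0 covers counting error only. Positions came from GENCODE M21 and promoter windows from RefSeq (GRCm38.p6), which matched 7 of 10 members.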

Additional observations from a re-analysis of the deposited data

Results flagged for a closer look

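Among the 19 gene and group sets of 4 libraries examined for a library far from the others, 2 stood out. Chance gives about 1 in 20 for continuous values, but a gene with reads in 1 of 4 libraries is always picked out by this measure, as both of these were. Fosb in FGF2 replicate 1 was at 0.148 CPM where the other 3 FGF2 libraries had no reads. Atf3 in PBS replicate 1 was at 6.04 CPM where the other 3 PBS libraries had no reads.

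Spike-in rows, which enter no comparison, held more than the 3 reads that a count of 0 allows in 7 libraries. DMSO replicate 3 had 86 such reads, FGF2 replicates 1, 2 and 3 had 15, 8 and 13, and SAG replicates 1, 2 and 3 had 4, 4 and 5. The sources used here do not say whether spike-ins were added.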

How the results depend on the processing

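No member was called in any of the 5 comparisons under any alternative run. Over 336 values from other settings and 296 with a library left out, the lowest adjusted p was 0.0692 (Egr1, FGF2 against FGF10, no filter on low counts), and 29 and 36 values changed sign. The 100 group mean levels under other library scalings stayed within 1 SD.

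With the replicate block, the log2(fold change) for FGF2 turned to -0.20 for Fos, -0.10 for Junb and -0.20 for Egr1, for FGF10 to -0.82 for Fosl2 and 0.20 for Junb, and for the vehicles to -0.52 for Egr1, -0.00641 for Ier2 and 0.66 for Myc. The deviations of same-numbered libraries correlated by -0.016 to 0.115, and in 22 of 62 cases a library correlated best with its own number in another group, so the numbers were not taken as pairs, and the block gave 12 calls over all genes for SAG in place of 8. Within replicates 1 and 2, FGF2 gave -0.14 for Jun, -0.62 for Junb, 0.023 for Jund and -0.70 for Egr1, FGF10 gave 0.065 for Jun, 0.057 for Junb, 0.28 for Ier2 and -1.25 for Atf3, and FGF2 against FGF10 gave -0.21 for Jun and -0.68 for Junb. Within replicates 3 and 4, FGF2 gave -0.11 for Fos, -0.11 for Ier2 and 0.49 for Myc, FGF10 gave -0.21 for Jund, -8.60 for Fosb and -9.31 for Fosl2 (no FGF10 reads there, so these depend on the prior count), and FGF2 against FGF10 gave -0.018 for Fos. With the set as a term, FGF2 gave -0.074 for Junb and -0.080 for Egr1, FGF10 gave -0.73 for Fosl2 and FGF2 against FGF10 gave -0.043 for Junb. Within replicates 3 and 4 the median of the members was 0.46 for FGF2, -0.52 for FGF10 and 0.92 for FGF2 against FGF10. The causes were not tested.

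With single libraries left out, SAG gave -0.10 to 0.27 for Egr1 and -1.18 to 1.92 for Myc. FGF2 gave -0.14 to 0.42 for Fos, -0.70 to 0.48 for Junb, -0.31 to 0.0055 for Jund, -0.94 to 1.43 for Egr1, -0.20 to 0.70 for Ier2 and -0.82 to 0.31 for Myc. FGF10 gave -8.06 to 2.63 for Fosb, -0.42 to 1.04 for Fosl2, -0.28 to 0.17 for Jun, -0.51 to 0.097 for Junb, -0.026 to 0.29 for Jund, -2.92 to 0.12 for Egr1 and -0.25 to 1.41 for Atf3. FGF2 against FGF10 gave -0.44 to 0.66 for Junb, -0.067 to 3.35 for Egr1 and 0.16 to 0.90 for the median. The vehicles gave -0.82 to 0.080 for Fos, -0.11 to 0.25 for Jun, -0.50 to 0.35 for Junb, -0.15 to 0.35 for Jund, -0.20 to 1.15 for Egr1 and -0.93 to 0.94 for Myc.

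Counts over all genes depended on the setting. For SAG, 8 became 76 without a filter, 42 with a mean of at least 10 counts, 4 with all 5 groups or the stricter threshold, 367 with DESeq2 and 1 to 7 with a library left out. DESeq2 gave 9 for FGF2, 37 for FGF10, 28 for FGF2 against FGF10 and 126 for the vehicles, each from 0. FGF2 against FGF10 gave 2 without a filter and 36 within replicates 3 and 4. The vehicles gave 36 without a filter, 4 with a mean of at least 10 counts and 1 with all 5 groups. Fosb, Atf3 and Fosl2 lacked reads in 10, 13 and 5 libraries, and the deepest library, SAG replicate 2 with 68342287 counts, had no Atf3 reads.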
